A study of Arabidopsis thaliana with 10 samples.

Results

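The 10 genes described here encode enzymes of flavonoid and anthocyanin synthesis in Arabidopsis thaliana. They were taken by their gene identifiers from tables of 32833 genes, and all 10 passed the filter on low counts in every comparison. The early steps (n = 5) were CHS (AT5G13930), CHI (AT3G55120), F3H (AT3G51240), F3'H (AT5G07990) and FLS1 (AT5G08640). The late steps (n = 5) were DFR (AT5G42800), LDOX (AT4G22880), UGT79B1 (AT5G54060), UGT75C1 (AT4G14090) and TT19 (AT5G17220). The material of the RNA-seq was 10-day-old seedlings of Col-0, the wild-type accession, and the labels name no transgene or mutation. Seedlings were exposed for 2 h to gaseous methyl jasmonate, a volatile form of the hormone jasmonic acid (JA), or were left untreated (ctrl). The 10 libraries formed 2 experiments, with 2 Set1_2hJA against 2 Set1_ctrl libraries and 3 Set2_2hJA against 3 Set2_ctrl libraries. The question was which of these genes changed within 2 h of JA, and whether early and late steps changed alike. Whole seedlings were used, so fewer cells of a type and less RNA per cell cannot be told apart.

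Flavonoids are phenolic compounds made from phenylalanine. Chalcone synthase (CHS), chalcone isomerase (CHI) and flavanone 3-hydroxylase (F3H) build the common skeleton, flavonoid 3'-hydroxylase (F3'H) adds a hydroxyl group, and flavonol synthase (FLS1) leads off to the colourless flavonols. Dihydroflavonol reductase (DFR) and leucoanthocyanidin dioxygenase (LDOX) lead to the anthocyanidins, which the glycosyltransferases UGT79B1 and UGT75C1 decorate with sugars. TT19 is a glutathione S-transferase that is needed for anthocyanins to reach the vacuole. In seedlings, the early genes are known as targets of the R2R3-MYB factors MYB11, MYB12 and MYB111, and the late genes as targets of complexes of an R2R3-MYB such as PAP1, a bHLH protein such as TT8 and the WD40 protein TTG1. JA is known to promote anthocyanin accumulation.

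The DNA before the annotated start of 4 members is printed because the results below turn on DFR, UGT79B1 and LDOX as late steps and on CHS as the first step. Each run holds the 250 bases before the start, 5' to 3' on the strand of the gene, with every G-box (CACGTG, the element that bHLH factors such as MYC2 are known to bind) in capitals. The sequence is that of the TAIR10.1 assembly of RefSeq.
DFR: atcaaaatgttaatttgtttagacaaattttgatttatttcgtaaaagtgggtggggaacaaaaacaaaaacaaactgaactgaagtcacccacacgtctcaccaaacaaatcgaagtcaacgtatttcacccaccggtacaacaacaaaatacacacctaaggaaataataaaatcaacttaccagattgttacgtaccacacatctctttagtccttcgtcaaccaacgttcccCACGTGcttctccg
LDOX: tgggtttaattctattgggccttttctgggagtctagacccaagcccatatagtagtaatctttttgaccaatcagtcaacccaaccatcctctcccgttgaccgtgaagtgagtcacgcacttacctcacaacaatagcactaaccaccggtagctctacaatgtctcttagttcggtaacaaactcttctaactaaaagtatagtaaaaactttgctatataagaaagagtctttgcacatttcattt
UGT79B1: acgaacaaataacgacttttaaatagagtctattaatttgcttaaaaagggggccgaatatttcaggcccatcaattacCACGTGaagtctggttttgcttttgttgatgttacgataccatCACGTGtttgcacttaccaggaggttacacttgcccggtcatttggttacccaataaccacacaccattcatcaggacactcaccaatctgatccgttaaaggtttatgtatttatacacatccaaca
CHS: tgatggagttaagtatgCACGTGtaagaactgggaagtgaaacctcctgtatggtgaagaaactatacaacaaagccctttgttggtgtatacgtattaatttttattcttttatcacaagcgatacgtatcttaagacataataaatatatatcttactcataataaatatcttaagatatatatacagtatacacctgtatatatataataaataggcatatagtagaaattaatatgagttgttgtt
These runs lie at chr5:17166033-17166282 (minus strand) for DFR, chr4:12006210-12006459 (minus strand) for LDOX, chr5:21938397-21938646 (minus strand) for UGT79B1 and chr5:4488226-4488475 (plus strand) for CHS.

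These 5 motifs (G-box, E-box, ACGT core, ACCTACC and ACCAACC) were searched on both strands from 250 bases before to 50 bases after the start of each gene, and in 27443 windows of the same length. A G-box was present in 5 of the 10 members (CHS, CHI, F3H, DFR and UGT79B1), compared with 7.68% of all windows. UGT79B1 had G-boxes at positions -171 and -128, and DFR at -14 and 10, so that both of these late genes held 2 copies. The G-box of CHS lay at -233, that of F3H at -249 and that of CHI at 40, and each early gene with the motif therefore held 1 copy. The E-box (CANNTG), which includes every G-box, was found in 7 of 10 members and 61.7% of windows, and the ACGT core, which every G-box also holds, in 6 of 10 members and 49.9% of windows. Of the MYB elements, ACCAACC was found in 2 of 10 members, DFR at -1 and UGT75C1 at -243, and in 3.29% of windows. The element ACCTACC was found in 0 of 10 members and 1.38% of windows. LDOX held none of the 5 motifs, and UGT75C1 and TT19 also lacked a G-box. The values of LDOX below moved with those of the other late genes, and the part of the motifs in this was not tested. A match is a description of these letters and not of binding.

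**Figure D1:**
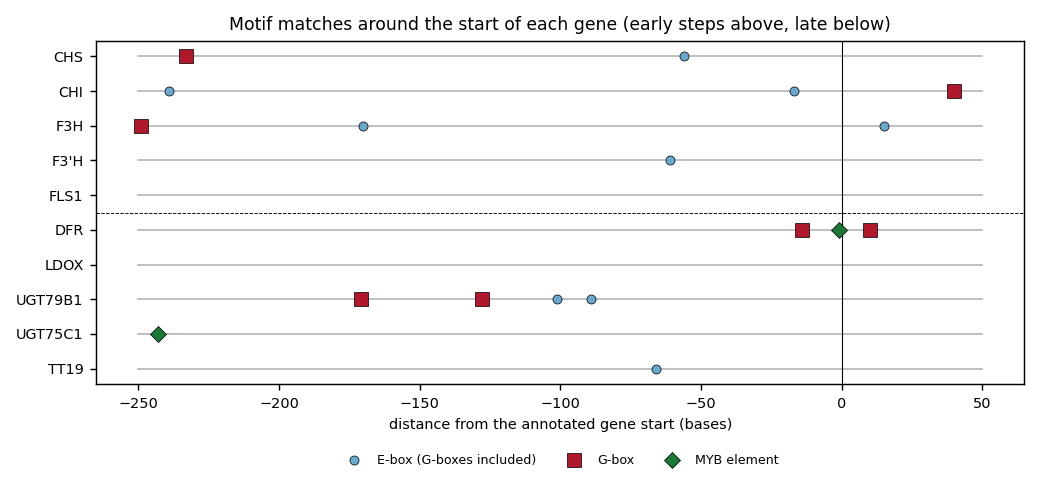
Positions of motif matches in the 10 genes, with the distance from the annotated gene start in bases on the x axis and 1 line per gene, early steps above the dashed line and late steps under it. G-boxes (squares) fall in 3 early genes and in the late genes DFR and UGT79B1, which hold 2 each, E-boxes are circles and the element ACCAACC is a diamond.

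Library totals were 12147941 to 17200426 expected counts in Set1 and 6333822 to 7774547 in Set2. Set2_2hJA replicate 1 stood apart from the other Set2 libraries. Plastid genes took 2.61% of its counts, compared with 0.121% to 0.377% in the other Set2 libraries. Over 3671 nuclear coding genes with no counts in any Set1 library, it held 9.15 counts per kb, compared with 0.207 to 0.84 counts per kb in the other Set2 libraries. At that density, 25% of the UGT79B1 counts and 0.863% of the CHS counts of this library would be of the same kind. Both Set1 libraries numbered 1 had 11.4% (Set1_2hJA) and 13.8% (Set1_ctrl) plastid counts, compared with 0.684% (Set1_2hJA) and 1.87% (Set1_ctrl) in those numbered 2. Shoot markers summed to 41100 and 39700 CPM in Set1_2hJA, against 55400 and 54400 CPM in Set1_ctrl, and their part in the Set1 results was not tested. The 5 JA marker genes LOX2, AOS, OPR3, JAZ10 and MYC2 were induced in both sets, with log2 fold changes of 3.24 to 4.48 in Set1 and 2.98 to 3.82 in Set2.

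In Set1, all 5 late genes rose strongly after JA, by 4.26-fold to 11.2-fold, while the early genes were 1.58-fold to 2.78-fold higher by their estimates. In all, 7 of 10 members were called induced, which required an adjusted p no greater than 0.05 in edgeR's quasi-likelihood test and a 2-fold rise or more. The same call was made for 2.94% of the 20098 genes tested. The 7 comprised 5 of 5 late and 2 of 5 early genes. The median log2 fold change was 2.84 over the late genes and 0.82 over the early genes, compared with -0.02 over all genes. Levels are given as CPM, counts per 1e6 counts of a library, after scaling the library totals by the trimmed mean of M-values (TMM).

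UGT79B1, which adds xylose to anthocyanins, changed most among the members. It had 35.5 and 40.7 CPM in Set1_2hJA, against 3.42 and 3.29 CPM in Set1_ctrl. The change was 11.2-fold (log2 fold change 3.48, SE 0.20, adjusted p = 0.00037, edgeR). DFR, at the branch point to anthocyanins, had 77.3 and 89.6 CPM in Set1_2hJA, against 7.77 and 10.4 CPM in Set1_ctrl, a rise of 9.05-fold (log2 fold change 3.18, SE 0.22, adjusted p = 0.00054, edgeR). Its treated libraries were far above both ctrl libraries.

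UGT75C1, the anthocyanin 5-O-glucosyltransferase, had 58.5 and 60.4 CPM in Set1_2hJA, against 7.52 and 8.9 CPM in Set1_ctrl. It rose 7.14-fold (log2 fold change 2.84, SE 0.18, adjusted p = 0.00047, edgeR). LDOX had 90.8 and 89.9 CPM in Set1_2hJA, against 15.4 and 13.5 CPM in Set1_ctrl, a rise of 6.16-fold (log2 fold change 2.62, SE 0.18, adjusted p = 0.00051, edgeR). In both genes the replicates of a group lay close together compared with the distance between groups. TT19, the transport gene, had 58.9 and 57 CPM in Set1_2hJA, against 14.7 and 12.1 CPM in Set1_ctrl. Its rise of 4.26-fold was the least of the 5 late genes (log2 fold change 2.09, SE 0.18, adjusted p = 0.00117, edgeR).

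Of the early genes, F3'H and CHI were called. F3'H had 17.3 and 17.3 CPM in Set1_2hJA, against 7.69 and 4.54 CPM in Set1_ctrl (log2 fold change 1.48, SE 0.27, adjusted p = 0.023, edgeR). CHI had 54.6 and 49.9 CPM in Set1_2hJA, against 25.5 and 20.9 CPM in Set1_ctrl (log2 fold change 1.15, SE 0.18, adjusted p = 0.0127, edgeR). Both calls were near the threshold. Without Set1_2hJA replicate 1 CHI had an adjusted p of 0.0539, and without Set1_2hJA replicate 2 F3'H had an adjusted p of 0.0517. The 5 late genes were called whichever library was left out.

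CHS, the entry enzyme, had 207 and 241 CPM in Set1_2hJA, against 130 and 119 CPM in Set1_ctrl. Its change passed the p threshold but stayed under 2-fold (log2 fold change 0.82, SE 0.17, adjusted p = 0.0398, edgeR), so that 8 of 10 members passed on adjusted p alone, as did 3.62% of all genes in this direction. With the replicate number as a block CHS had an adjusted p of 0.00262 by edgeR. With Set1_ctrl numbered as its deposited tables are, opposite to the sample titles, the block gave CHS an adjusted p of 0.14. F3H had 61.2 and 68 CPM in Set1_2hJA, against 44.6 and 35.2 CPM in Set1_ctrl (log2 fold change 0.67, SE 0.19, adjusted p = 0.0916, edgeR). FLS1, the flavonol branch, had 51.1 and 56.1 CPM in Set1_2hJA, against 35.4 and 31.4 CPM in Set1_ctrl (log2 fold change 0.66, SE 0.17, adjusted p = 0.0724, edgeR). In all 10 members both treated libraries lay above both ctrl libraries, as they did for 25.6% of all genes tested.

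**Figure D2:**
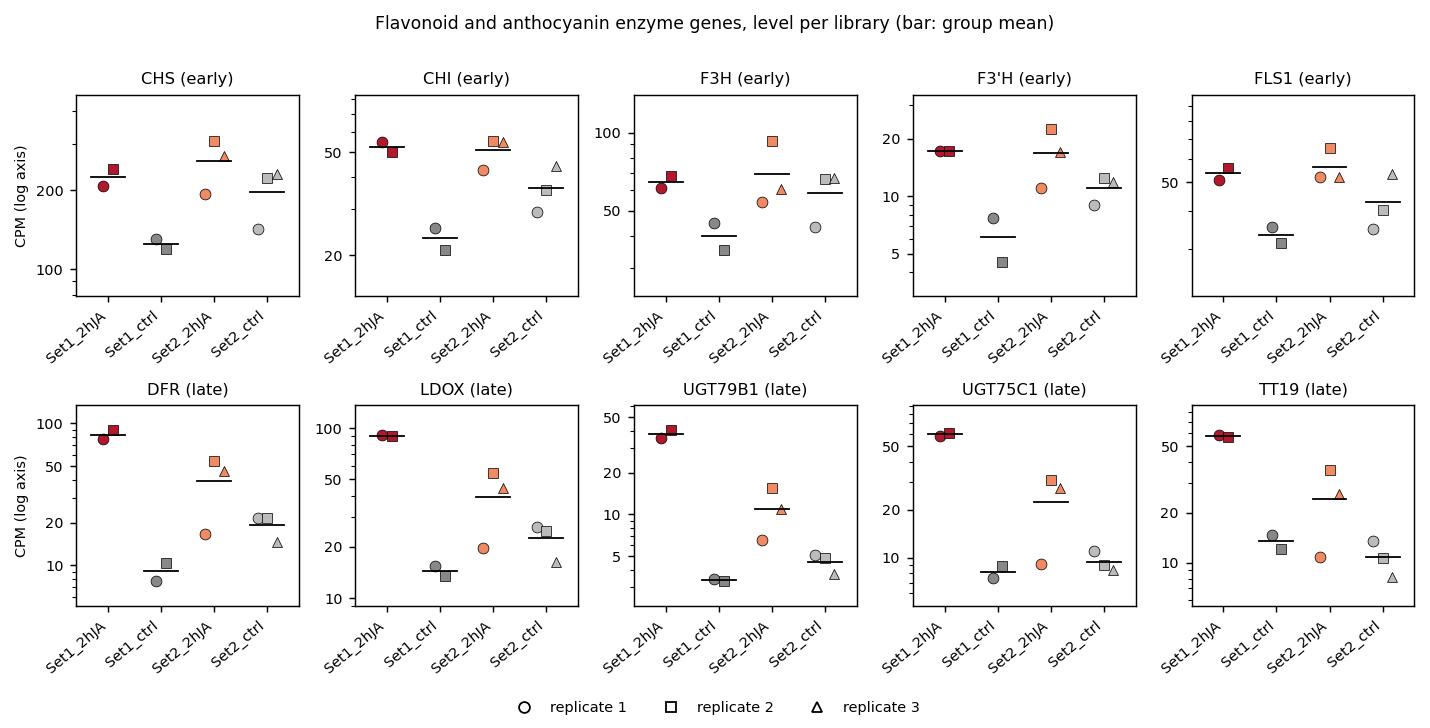
Level of each gene in every library, in CPM on a log axis, with 1 point per library, the shape giving the replicate number and the bar the group mean. Early genes are in the upper row and late genes in the lower row. Set1_2hJA lies far above Set1_ctrl in each late gene (UGT79B1 35.5 and 40.7 against 3.42 and 3.29 CPM), and the circle of Set2_2hJA replicate 1 lies within or near the Set2_ctrl points.

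In Set2, 1 of the 10 members was called induced, UGT79B1, compared with 1.78% of the 19259 genes tested. All 10 log2 fold changes were positive. Their median was 1.14 over the late genes and 0.39 over the early genes, compared with 0.01 over all genes. UGT79B1 had 6.56, 15.5 and 11 CPM in Set2_2hJA, against 5.13, 4.83 and 3.71 CPM in Set2_ctrl, a rise of 2.38-fold (log2 fold change 1.25, SE 0.31, adjusted p = 0.0492, edgeR). It was the only member whose groups did not overlap, with 10.9% of all genes not overlapping in this direction. At the density of otherwise silent genes given above, 15.1 of its 60.52 counts in Set2_2hJA replicate 1 would be of that kind. The part of these counts in the non-overlap and in the call was not tested. The UGT79B1 call was at the edge of the threshold. It was lost with unrounded expected counts (adjusted p = 0.0512), with limma (adjusted p = 0.054) and on leaving out any library other than Set2_2hJA replicate 1 (adjusted p = 0.0944 without Set2_ctrl replicate 1, 0.155 without Set2_ctrl replicate 2, 0.126 without Set2_ctrl replicate 3, 0.149 without Set2_2hJA replicate 2 and 0.119 without Set2_2hJA replicate 3).

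The treated libraries of Set2 differed among themselves in the late genes. DFR had 16.7, 54.8 and 45.9 CPM in Set2_2hJA replicates 1, 2 and 3, against 21.6, 21.6 and 14.6 CPM in Set2_ctrl (log2 fold change 1.01, SE 0.37, adjusted p = 0.178, edgeR). LDOX had 19.8, 54.2 and 44.2 CPM in Set2_2hJA, against 26.1, 24.8 and 16.2 CPM in Set2_ctrl (log2 fold change 0.80, SE 0.32, adjusted p = 0.227, edgeR). In both genes replicate 1 of Set2_2hJA lay inside the range of Set2_ctrl and the other 2 treated libraries above it.

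UGT75C1 had 9.14, 30.8 and 27.3 CPM in Set2_2hJA, against 11.1, 9 and 8.39 CPM in Set2_ctrl (log2 fold change 1.22, SE 0.38, adjusted p = 0.112, edgeR). TT19 had 10.8, 35.9 and 26 CPM in Set2_2hJA, against 13.5, 10.7 and 8.25 CPM in Set2_ctrl (log2 fold change 1.14, SE 0.38, adjusted p = 0.134, edgeR). The pattern over libraries was that of DFR and LDOX. Without Set2_2hJA replicate 1, 5 of 10 members were called induced in Set2, all of them late genes, compared with 1.39% of the 19331 genes then tested. The log2 fold changes were then 1.37 for DFR (adjusted p = 0.00729), 1.13 for LDOX (adjusted p = 0.0239), 1.52 for UGT79B1 (adjusted p = 0.0132), 1.60 for UGT75C1 (adjusted p = 0.00196) and 1.50 for TT19 (adjusted p = 0.0115). Leaving out any other single Set2 library gave 0 calls among the members by edgeR. At the thresholds of a call, DESeq2 called 3 of 10 and limma 0 of 10. Over the 9 alternatives, 311 to 392 of all genes were called induced. At an unadjusted p of at most 0.05 alone, the edgeR fit of all 6 libraries had 8 of 10 members up, compared with 1645 of the 19259 genes tested.

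The early genes were not called in Set2. CHS had 194, 308 and 270 CPM in Set2_2hJA, against 142, 222 and 231 CPM in Set2_ctrl (log2 fold change 0.37, SE 0.22, adjusted p = 0.418, edgeR). CHI had 42.8, 55.4 and 54.5 CPM in Set2_2hJA, against 29.3, 35.7 and 44 CPM in Set2_ctrl (log2 fold change 0.48, SE 0.16, adjusted p = 0.152, edgeR). The groups overlapped in both genes. F3H had 53.9, 93 and 60.8 CPM in Set2_2hJA, against 43.1, 66.1 and 66.6 CPM in Set2_ctrl, and its sign changed without Set2_2hJA replicate 2 (log2 fold change -0.04), against 0.23 with it. F3'H had 11, 22.5 and 17 CPM in Set2_2hJA, against 9.04, 12.5 and 11.8 CPM in Set2_ctrl. FLS1 had 52, 65.3 and 52.1 CPM in Set2_2hJA, against 35, 40.3 and 53.4 CPM in Set2_ctrl. The log2 fold change was 0.58 for F3'H (SE 0.25, adjusted p = 0.252) and 0.39 for FLS1 (SE 0.17, adjusted p = 0.263), and leaving out Set2_2hJA replicate 1 brought no early gene over the thresholds.

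Set2_2hJA replicate 1 was low in the late genes but not in the JA markers. Its mean log2 CPM over the 5 late genes was 3.57, compared with 5.13 and 4.80 in Set2_2hJA replicates 2 and 3, and 3.22 to 3.77 in Set2_ctrl. Over the 5 JA markers its mean log2 CPM was 8.87, compared with 8.49 and 8.02 in the other Set2_2hJA libraries. PAP1 had a log2 CPM of 4.48 in it, compared with 5.13 and 4.35. The plastid share and the counts in otherwise silent genes given above moved with this library, and their part in the low late gene values was not tested. Seedlings should hold little of the 6 seed coat markers (BAN, TT12, AHA10, TT10, TT2 and TT16). The same holds for the 4 flower markers (AP3, PI, AG and SEP2). AHA10 nevertheless passed the filter on low counts and averaged 1.95 CPM in Set2_ctrl. The summed level of the seed coat markers was 8.06 CPM in this library, compared with 3.1 and 2.95 CPM in the other Set2_2hJA libraries and 1.75 to 4.72 CPM in Set2_ctrl, and 5 of 6 were highest in it among all 10 libraries. That of the flower markers was 9.14 CPM, compared with 1.21 and 0.563 CPM in the other Set2_2hJA libraries and 1.07 to 1.38 CPM in Set2_ctrl, and 4 of 4 were highest in it. The summed level of 4 shoot markers (LHCB1.3, RBCS1A, RBCS3B and CA1) was 22300 CPM in this library, compared with 30200 and 30400 CPM in the other Set2_2hJA libraries and 29300 to 33500 CPM in Set2_ctrl. The 4 root markers (EXPA7, COBL9, PYK10 and SHR) summed to 1870 CPM in it, within the 1620 to 1870 CPM of Set2_ctrl. Nearly all of this sum was PYK10, which averaged 1850 CPM in Set2_2hJA, against 5.82 for EXPA7, 5.57 for COBL9 and 15.5 for SHR. The sum therefore says little of the other root markers. Of the 3671 genes with no counts in Set1, 82.1% were detected in Set2_2hJA replicate 1, against 11.8% to 43.2% in the other Set2 libraries. A highest value in this library was therefore not shown to be particular to the seed coat or flower markers. The part of these values in the result was not tested.

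**Figure D3:**
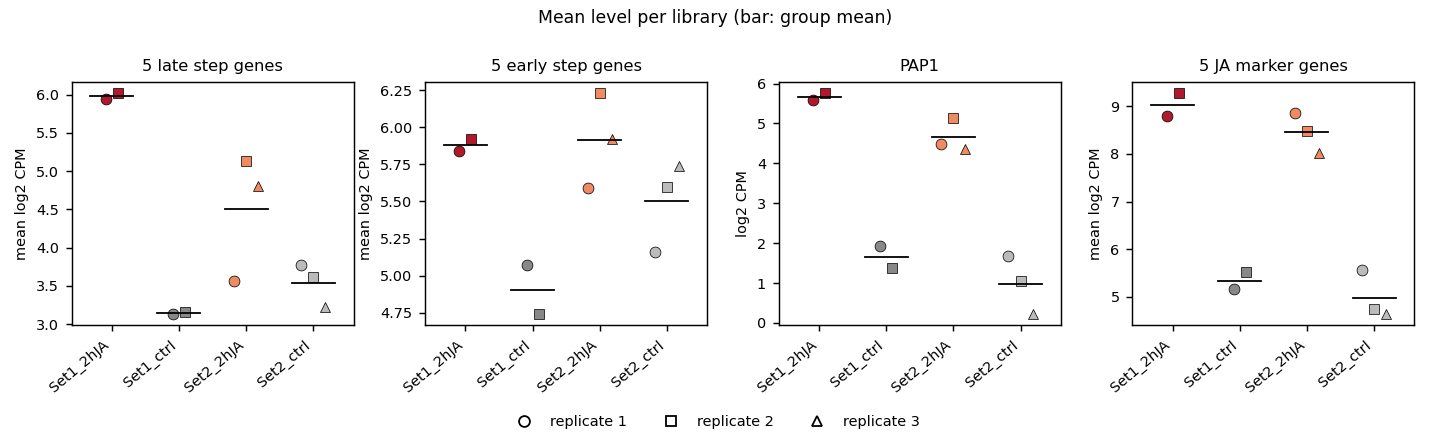
Mean log2 CPM per library of the 5 late genes, the 5 early genes, PAP1 and the 5 JA markers, by group, with 1 point per library and a bar at the group mean. Set2_2hJA replicate 1 (circle) is at 3.57 for the late genes, within the Set2_ctrl range of 3.22 to 3.77, while its JA marker mean of 8.87 is the highest of the 3 Set2_2hJA libraries.

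By their means, late genes moved more than early genes in both experiments. The mean log2 CPM of the late genes minus that of the early genes was 0.10 and 0.10 in Set1_2hJA, against -1.93 and -1.58 in Set1_ctrl. In Set2 it was -2.03, -1.10 and -1.12 in Set2_2hJA, against -1.39, -1.99 and -2.53 in Set2_ctrl. Gene length was not corrected in this measure, so only its change is of use. JA minus ctrl, it changed by 1.85 in Set1 and by 0.55 in Set2, where the groups overlapped and the SD was 0.53 in Set2_2hJA and 0.57 in Set2_ctrl. The late genes alone changed by 2.83 in Set1 and 0.96 in Set2, and the early genes by 0.98 in Set1 and 0.41 in Set2. No p is given, because the members were chosen with results of these data known.

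**Figure D4:**
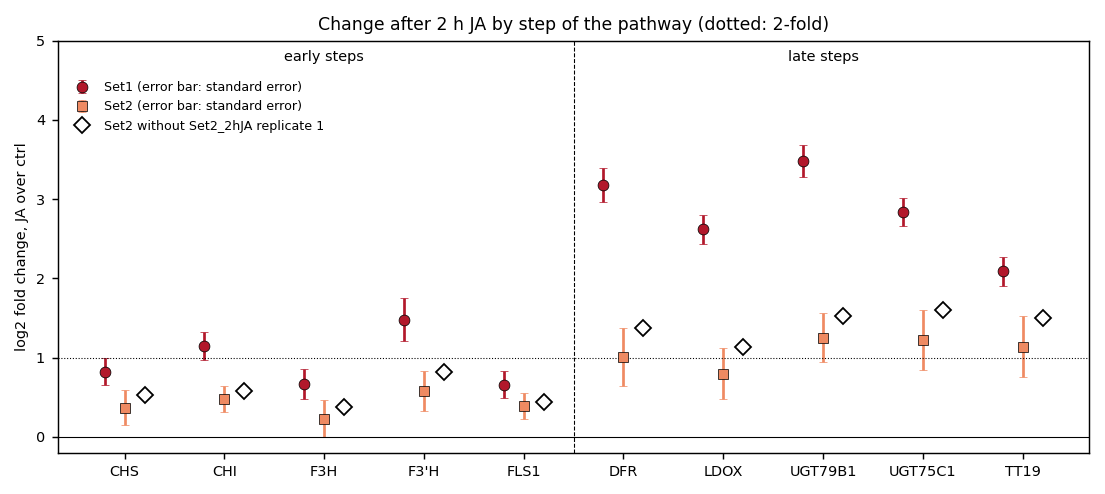
Log2 fold change of JA over ctrl for each gene in pathway order, in Set1 (circles) and Set2 (squares) with standard errors, and in Set2 without Set2_2hJA replicate 1 (open diamonds), with a dotted line at 2-fold. The 5 late genes are at 2.09 to 3.48 in Set1 and at 0.80 to 1.25 in Set2 and the early genes at 0.66 to 1.48 in Set1 and at 0.23 to 0.58 in Set2.

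When all 10 libraries were fitted with the set as covariate, 5 of 10 members were called induced, all 5 late genes, compared with 2.63% of the 20213 genes tested. The log2 fold changes were 2.25 for UGT79B1 (SE 0.39, adjusted p = 0.00223), 1.92 for UGT75C1 (SE 0.36, adjusted p = 0.00332), 1.88 for DFR (SE 0.43, adjusted p = 0.011), 1.57 for TT19 (SE 0.29, adjusted p = 0.0035) and 1.55 for LDOX (SE 0.36, adjusted p = 0.0125), all from edgeR. Among the early genes F3'H came nearest to the threshold, at 0.96 (SE 0.24, adjusted p = 0.0172, edgeR), which is just under 2-fold, and it was called without Set2_2hJA replicate 1 at 1.13 (adjusted p = 0.00351), a fit in which 2.45% of all genes were called induced. It was also called without Set2_2hJA replicate 3 (adjusted p = 0.0289), Set2_ctrl replicate 2 (adjusted p = 0.0203) or Set2_ctrl replicate 3 (adjusted p = 0.0192), and with library totals only (adjusted p = 0.0145). On adjusted p alone 9 of 10 members passed, all but F3H, compared with 6.93% of all genes in this direction. With edgeR's robust option, DFR and LDOX had adjusted p values of 0.0588 and 0.0568 and were not called, and 3 of 10 members remained over the thresholds.

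The response to JA was smaller in Set2 than in Set1 for each member by its estimate, but no member was called in the test of that difference. In the set by JA interaction 0 of 10 members passed by edgeR, and 0% of the 20213 genes did so in either direction, although 675 were positive and 763 negative at an unadjusted p of at most 0.05. At that unadjusted p, 6 of 10 members were negative by edgeR. On adjusted p, DESeq2 called 2 of 10 members negative, with 81 of all genes, and limma called 0 of 10 members. All 10 estimates were negative, with a median of -1.83 over the late genes and -0.46 over the early genes, compared with 0.01 over all genes. The largest were -2.24 for UGT79B1 (SE 0.42, adjusted p = 0.149), -2.18 for DFR (SE 0.55, adjusted p = 0.288) and -1.83 for LDOX (SE 0.47, adjusted p = 0.299). With the replicate number as a block UGT79B1 was called, at -2.28 (adjusted p = 0.0434). The deposited Set1_ctrl tables are numbered opposite to the sample titles, and with that numbering the block gave -2.29 (adjusted p = 0.145) and no call. PAP1 had an estimate of -0.37 (SE 0.50, adjusted p = 0.938) and the JA markers of -0.69 to 0.30.

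In untreated seedlings DFR was higher in Set2_ctrl than in Set1_ctrl, 1 of 10 members, with 4.17% of 19269 genes called in this direction. Its CPM values were 21.6, 21.6 and 14.6 in Set2_ctrl, against 7.77 and 10.4 in Set1_ctrl, a difference of 2.13-fold (log2 1.09, SE 0.24, adjusted p = 0.0191, edgeR). It was not called without Set1_ctrl replicate 1 (adjusted p = 0.0946) or without Set2_ctrl replicate 2 (adjusted p = 0.0646). For the other members the log2 difference was 0.22 to 0.87, with the exception of TT19 at -0.30. The DFR call was kept with library totals only and with limma on TPM, but the number of calls moved. With library totals only, 6 of 10 members were called higher in Set2_ctrl, and so were 2460 of all genes. With limma on TPM, which changes the unit and the test as well as the scaling, 7 of 10 members and 3434 of all genes were. In the main fit 804 of all genes were called higher, so the calls moved over the whole genome and not only in the members. The experiment and everything else that differed between the sets cannot be told apart.

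Compared per length, CHS was the most abundant member in every group. In TPM, in which counts are divided by transcript length and each library is scaled to the same total, it averaged 154 ± 51 in Set1_2hJA and 75.3 ± 18.5 in Set1_ctrl (SD, n = 2 each), and 243 ± 43.5 in Set2_2hJA and 191 ± 49.6 in Set2_ctrl (SD, n = 3 each). In Set1_ctrl the next were F3H at 29.2 ± 3.55, FLS1 at 23.2 ± 5.83 and CHI at 21.7 ± 3.71 TPM (SD, n = 2 each). FLS1, at 19.1 and 27.3 TPM, overlapped with F3H, at 26.7 and 31.7 TPM, and with CHI, at 19 and 24.3 TPM, while both F3H values lay above both CHI values. Within each Set1_ctrl library, however, F3H was above FLS1 and FLS1 above CHI. UGT79B1 was the least abundant there, at 2.1 ± 0.594 TPM, with F3'H at 3.08 ± 0.191 TPM. In Set1_2hJA the order changed, as LDOX at 84.5 ± 18.4, DFR at 64.8 ± 21.1 and TT19 at 62.8 ± 12.8 TPM followed CHS and overlapped with each other (SD, n = 2 each). Within each Set1_2hJA library LDOX was above DFR and TT19, while the order of DFR and TT19 differed between the libraries. F3'H was the least abundant in Set1_2hJA, at 10.3 ± 2.33 TPM. In Set2_2hJA, F3H at 81 ± 21.4 and CHI at 75.6 ± 6.62 TPM followed CHS, and their order differed between libraries. CHI was above F3H in replicate 1 (68 against 67.6 TPM) and replicate 3 (79.1 against 69.8 TPM), while F3H was above CHI in replicate 2 (106 against 79.8 TPM). UGT79B1 was the least abundant in both Set2 groups, at 10.7 ± 3.93 TPM in Set2_2hJA and 4.51 ± 0.64 TPM in Set2_ctrl (SD, n = 3 each).

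Enzymes before CHS, which make its substrate from phenylalanine, did not reach a 2-fold change. Of 8 such genes (PAL1 to PAL4, C4H and 4CL1 to 4CL3), 0 were called in either direction by edgeR in Set1, Set2 or the combined fit. At an unadjusted p of at most 0.05, 3 were up and 3 down in the combined fit, compared with 2706 up and 2545 down of the 20213 genes tested. On adjusted p alone 3 were up in the combined fit (PAL1, 4CL2 and 4CL3) and 1 was down (PAL3), compared with 6.93% of all genes up and 6.67% down, and all 4 changed by less than 2-fold. DESeq2 and limma also called 0 of 8 in the combined fit. In Set1, PAL1 was called without Set1_2hJA replicate 1 (log2 fold change 1.08, adjusted p = 0.0487) and 4CL3 without Set1_ctrl replicate 2 (log2 fold change 1.02, adjusted p = 0.0394). These 4 genes were named after their values were seen. Their combined log2 fold changes were -0.60 (PAL3) to 0.60 (PAL1), with a median of 0.04.

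Among 16 further flavonoid genes, of which 15 were tested, 4 rose in the combined fit, compared with 2.63% of all genes, and 0 fell. Most genes of this list encode enzymes that add sugars or acyl groups, and others of that kind were not called in this fit. Among them were UGT78D2 (log2 fold change 0.59, adjusted p = 0.0562), UGT84A2 (0.66, adjusted p = 0.00044), 3AT2 (0.74, adjusted p = 0.0198) and SCPL10 (0.37, adjusted p = 0.263), which were named after their values were seen. UGT78D2 was called in Set1 (log2 fold change 1.08, adjusted p = 0.0187, edgeR), but not with library totals only (adjusted p = 0.0673, edgeR) or with limma (adjusted p = 0.126). In Set2 it was not called, at 0.24 (adjusted p = 0.552, edgeR). UGT89C1, a flavonol 7-O-rhamnosyltransferase, had 156 and 187 CPM in Set1_2hJA, against 43 and 37.4 CPM in Set1_ctrl, and 158, 140 and 125 CPM in Set2_2hJA, against 58, 53.4 and 46.8 CPM in Set2_ctrl. The estimate over both sets was a log2 fold change of 1.69 (SE 0.14, adjusted p = 1.4e-05, edgeR), and it rose in each set. UGT78D1, a flavonol 3-O-rhamnosyltransferase, had 122, 145 and 126 CPM in Set2_2hJA, against 63.6, 47.5 and 46.2 CPM in Set2_ctrl, and rose by 1.54 in the combined fit (SE 0.13, adjusted p = 1.6e-05, edgeR). In these flavonol genes, unlike in the late members, Set2_2hJA replicate 1 lay with the other treated libraries. The anthocyanin acyltransferase genes 5MAT, at 1.76 (SE 0.24, adjusted p = 0.00041), and 3AT1, at 1.40 (SE 0.30, adjusted p = 0.00886), rose as well. 3AT1 had 9.57, 19 and 15.1 CPM in Set2_2hJA, against 8.64, 9.53 and 9.21 CPM in Set2_ctrl, so that replicate 1 was again next to ctrl. Of the seed coat branch of the pathway, 1 of 6 genes was tested (AHA10), and it was not called.

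**Figure D5:**
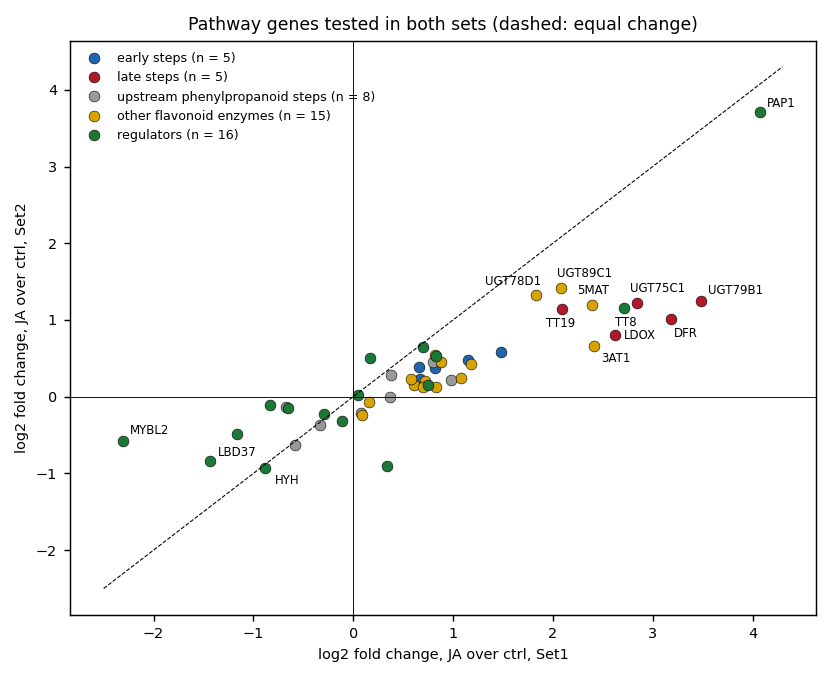
Log2 fold change of JA over ctrl in Set1 (x axis) and Set2 (y axis) for the early and late genes, the upstream steps, the other flavonoid enzymes and the regulators tested in both sets, 1 point per gene, with a dashed line of equal change. The late genes lie far under the line (UGT79B1 3.48 in Set1 and 1.25 in Set2), and PAP1 lies near it (4.07 in Set1 and 3.71 in Set2).

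Among 20 regulators of the pathway, of which 18 were tested, 4 rose and 2 fell in the combined fit, compared with 2.63% of all genes that rose and 1.40% that fell. PAP1, the MYB activator of the late genes, had 48.1 and 54.1 CPM in Set1_2hJA, against 3.59 and 2.4 CPM in Set1_ctrl, and 22.1, 34.7 and 20.1 CPM in Set2_2hJA, against 2.97, 1.88 and 0.963 CPM in Set2_ctrl. Its log2 fold change was 4.07 in Set1 (SE 0.24, adjusted p = 0.00037, edgeR) and 3.71 in Set2 (SE 0.34, adjusted p = 0.00042, edgeR), so that PAP1 rose in both sets, and every treated library lay above every ctrl library. TT8, the bHLH partner, had 5.54 and 6.1 CPM in Set1_2hJA, against 0.854 and 0.89 CPM in Set1_ctrl, and 3.01 to 3.38 CPM in Set2_2hJA, against 2.16, 1.21 and 0.963 CPM in Set2_ctrl. It rose in the combined fit (log2 fold change 1.82, SE 0.34, adjusted p = 0.00356, edgeR) and in Set1, while in Set2 its adjusted p was 0.142. MYB113 and MYB114, close relatives of PAP1, were barely detected without JA. MYB113 had 0 counts in every ctrl library, and against a floor of 3 counts per library it was at least 5.34-fold higher in Set1_2hJA and at least 4.93-fold higher in Set2_2hJA. MYB114 had 18 and 30 counts in Set1_2hJA, against 1 and 0 counts in Set1_ctrl, and 22, 11 and 7 counts in Set2_2hJA, against 3, 1 and 2 counts in Set2_ctrl. Both genes were called in Set1 and in the combined fit, but neither passed the filter in Set2. Their Set1 calls were lost with a replicate block and Set1_ctrl numbered as its deposited tables are. Adjusted p was then 0.0622 for MYB113 and 0.0575 for MYB114 by edgeR.

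The 2 regulators that fell by 2-fold or more in the combined fit were MYBL2 and LBD37. MYBL2, a MYB protein known to repress the late genes, had 17.3 and 12.9 CPM in Set1_2hJA, against 77.9 and 69 CPM in Set1_ctrl, and 20, 26.5 and 26.2 CPM in Set2_2hJA, against 31.6, 46.3 and 30.4 CPM in Set2_ctrl. It fell in the combined fit (log2 fold change -1.27, SE 0.29, adjusted p = 0.0116, edgeR) and in Set1 at -2.31, where 2.20% of all genes fell, but was not called in Set2 at -0.58 (adjusted p = 0.11). In the set by JA interaction MYBL2 was at 1.71 (adjusted p = 0.125), and 3AT1 at -1.77 (adjusted p = 0.149). With the replicate number as a block both were called, MYBL2 at 1.73 (adjusted p = 0.0162) and 3AT1 at -1.80 (adjusted p = 0.0321), but neither was when the Set1_ctrl libraries were numbered as their tables are (adjusted p = 0.126 for each). LBD37, which is known to repress anthocyanin genes under nitrogen supply, fell as well (log2 fold change -1.07, SE 0.15, adjusted p = 0.00053, edgeR). With limma its combined change was under 2-fold, at -0.97. It was called in Set1 at -1.43, but not with library totals only (adjusted p = 0.0517, edgeR) or with limma (adjusted p = 0.173). In Set2 LBD37 was under 2-fold and not called, at -0.84 (adjusted p = 0.0253, edgeR). On adjusted p alone 4 of the 18 regulators were down, compared with 6.67% of all genes, the others being LBD39 at -0.76 (adjusted p = 0.00947) and HYH at -0.91 (SE 0.13, adjusted p = 0.00069), both named after their values were seen. HYH, a bZIP protein that acts with HY5 in the light response and is not known as a repressor of the late genes, had 6.08 and 3.89 CPM in Set1_2hJA, against 10.3 and 7.74 CPM in Set1_ctrl, and 13.8, 13.1 and 14.9 CPM in Set2_2hJA, against 23.9, 27.9 and 27.8 CPM in Set2_ctrl. Its groups did not overlap in either set, as was so in this direction for 23.8% of all genes in Set1 and 12.1% in Set2. Of the regulators of the early genes, MYB12 had a combined log2 fold change of 0.67 (adjusted p = 0.0551) and MYB111 of -0.41 (adjusted p = 0.558), and MYB11 did not pass the filter. The bHLH genes GL3 (0.68, adjusted p = 0.137) and EGL3 (0.04, adjusted p = 0.882) and TTG1 (-0.39, adjusted p = 0.0958; -0.83 in Set1, adjusted p = 0.0407) were not called, and PAP2 did not pass the filter.

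The members of each group followed each other over the 10 libraries. After the mean of each set was removed, the correlation of log2 CPM was 0.953 to 0.99 over the 10 pairs of late genes, 0.838 to 0.948 over the 10 pairs of early genes and 0.724 to 0.921 over the 25 mixed pairs. These are descriptions over libraries that share the treatment. Of 18537 other genes, those most like the mean of the late genes were RD22 (Pearson's r = 0.986), AT1G03940, which is 3AT1 (0.979), 5MAT (0.975) and AT5G13070 (0.974). Those most like the mean of the early genes were AT1G33230 (0.976), PGIP1 (0.961), UGT73B4 (0.957) and DJ1A (0.948). A correlation takes no account of the size of a change. The combined log2 fold change was 0.61 for RD22, 1.40 for 3AT1, 1.76 for 5MAT and 0.35 for AT5G13070, compared with 1.55 to 2.25 for the late genes. It was 0.36 for AT1G33230, 0.29 for PGIP1, 0.97 for UGT73B4 and 0.36 for DJ1A, compared with 0.42 to 0.96 for the early genes.

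The members lie on chromosomes 3, 4 and 5 of TAIR10.1. CHI is at chr3:20430059-20431597 with 4 exons, F3H at chr3:19025192-19026872, LDOX at chr4:12004726-12006209 and UGT75C1 at chr4:8122188-8123835 with 1 exon. On chromosome 5, F3'H is at chr5:2560328-2563137 with 4 exons, FLS1 at chr5:2803833-2805606, CHS at chr5:4488476-4490264 with 2 exons, TT19 at chr5:5658416-5659661 with 3 exons, DFR at chr5:17164093-17166032 with 6 exons and UGT79B1 at chr5:21936746-21938396 with 1 exon. CHS, F3H, UGT75C1 and TT19 overlap a gene on the other strand in this annotation. Whether the counting used strand is not stated, so their reads could include those of the neighbour. Counts that were not whole, and so were shared with another gene or transcript, were found in 100% of libraries for UGT75C1, 80% for F3H, 30% for LDOX and 10% each for UGT79B1 and TT19.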

How the data were processed

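RNA was extracted from whole seedlings and sequenced as stranded, poly(A)-selected libraries. The authors aligned reads to TAIR10 with STAR (2.7.5a) and deposited, for each library, RSEM (1.3.3) expected counts and TPM per gene. Their deposited edgeR (3.36.0) comparison tables, with fold changes and p-values, were not used here. Groups and replicate numbers came from the sample titles.

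Expected counts were rounded and fitted with edgeR (4.0.16, R 4.3.3): filterByExpr by group, TMM, quasi-likelihood F test and Benjamini-Hochberg adjustment over all genes tested, for each set alone, for both sets with set as covariate, for the set by JA interaction and for Set2_ctrl against Set1_ctrl. SE is the log2 fold change over the root of F. A call needed an adjusted p of at most 0.05 and, outside the interaction, a 2-fold change. Log2 CPM had a prior count of 2. Alternatives were library totals only, DESeq2 (1.42.0), limma (3.58.1) on log2(TPM + 1), no filter, organelle and ribosomal genes left out, a replicate block, 1 model of all 10 libraries and leaving out each library.

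The members and lists were chosen with earlier results of these data known. Named were all 10 members, list genes called in the combined fit or in both sets, 9 regulators whatever their values, and the 4 genes most like each profile. The fits were tested on simulated data. They kept false calls few when genes shared one dispersion trend, but with gene-wise dispersions the within-set and ctrl fits made more false calls than the threshold allows, so calls near the threshold are less certain than their adjusted p.

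Deviations from group means correlated at 0.211, 0.231 and 0.267 between same-numbered Set2 libraries and at 0.474 in Set1. No source says what a number marks. The deposited Set1_ctrl tables are numbered opposite to the titles, and with their numbers the Set1 value is -0.474. The study's methods call the replicates biological without saying what separated them. Of 45 library pairs, 0 were identical. Gene records were taken from TAIR10.1, in which 99.3% of 21633 single-transcript genes had the same length as in the deposited tables.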

Additional observations from a re-analysis of the deposited data

How the results depend on the processing

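No direction of a call was reversed under any alternative. In Set2, 1 member was called induced, compared with 3 with DESeq2, 3 with no filter, 0 with limma and 0 with unrounded expected counts, and 0 to 5 on leaving out 1 library. In the combined fit, 5 members were called, compared with 3 with the robust edgeR option, and in Set1 7, compared with 5 with limma and 6 to 7 on leaving out 1 library. In the interaction, 0 members were negative, compared with 2 with DESeq2, 3 with no filter and 1 with the replicate block. In Set2_ctrl against Set1_ctrl, 1 member was higher, compared with 6 with library totals only, 7 with limma and 0 to 1 on leaving out 1 library. The cause was not tested. The robust option, unrounded counts and the block with Set1_ctrl renumbered were chosen after seeing the data. JA minus ctrl, the late minus early measure was 1.67 to 2.03 in Set1 and 0.27 to 0.86 in Set2 on leaving out 1 library. Where an arm then held 1 library, that library was assumed to vary like the other group. The replicate block changed no other member's call, but it moved some members over the p threshold alone. In Set1, F3H had an adjusted p of 0.0166 and FLS1 of 0.015 by edgeR with the block. In Set2, CHI had 0.0315, and all 3 stayed under 2-fold. With Set1_ctrl numbered as its deposited tables are, the block gave adjusted p values of 0.196 for F3H and 0.199 for FLS1 in Set1. CHS, which had passed on adjusted p alone without a block, then had 0.14. With Set1_ctrl numbered as its deposited tables are, opposite to the titles, the block gave 0 members and 0 genes in the interaction and 289 repressed calls over all genes in Set1, and it left the number of members called in the other comparisons as without a block. Over all genes, Set1 repressed calls were 442, compared with 207 with library totals only, 166 with limma and 251 and 269 without Set1_2hJA replicates 2 and 1. Set2 repressed calls were 146, compared with 71 without Set2_ctrl replicate 2 and 92 without Set2_2hJA replicate 1, and combined repressed calls 282, compared with 183 with limma. In the interaction 0 genes were positive and 0 negative, compared with 55 and 81 with DESeq2, 38 and 41 with no filter, and 29 and 32 with the replicate block. In Set2_ctrl against Set1_ctrl 804 were higher and 668 lower, compared with 2460 and 243 with library totals only, and 3434 and 181 with limma.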
